A study of Danio rerio with 29 samples.

Results

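Melatonin is made from serotonin in 2 enzyme steps, and zebrafish carry several genes for each step. The genes described here are aanat1 (ENSDARG00000036567) and aanat2 (ENSDARG00000079802), which encode arylalkylamine N-acetyltransferases, and asmt (ENSDARG00000098249, listed under the human symbol ASMT) and asmt2 (ENSDARG00000070874), which encode acetylserotonin O-methyltransferases. The rule lists them by gene identifier and uses no measured value, and they make up 4 of the 32520 genes in each of 2 count tables.

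Tryptophan hydroxylase (TPH) and aromatic amino acid decarboxylase (DDC) turn tryptophan into serotonin. AANAT then acetylates serotonin, and ASMT methylates the N-acetylserotonin to give melatonin, the hormone of darkness. In fish the pineal gland is itself a light-sensing organ, whose photoreceptor cells make melatonin at night. Fish keep a pair of AANAT subfamilies: aanat2 is known as the pineal form, and aanat1 as a form used mainly in the retina.

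RNA was counted in 11 libraries of whole brain and 18 of whole body from which the brain had been removed, all from adult zebrafish. Fish were homozygous for either of 2 CRISPR/Cas9 alleles of ccser1, CCSER1_P471 (called M here) or CCSER1_S48Y* (called S), or were wild-type (WT) siblings born to heterozygous parents. Brain groups held 3 WT, 4 M and 4 S libraries, and body groups held 6 each. Age in months, sex, hour of collection, pooling of animals and batch are not labelled, nor is it said that each library is a separate animal, so p-values measure only the spread between these libraries.

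Brain libraries held 7445865 to 9521735 counts each, and body libraries 9450422 to 11674882. The edited gene itself did not pass the test in brain, at -0.17 on the log2 scale for M (adjusted p = 0.666) and 0.19 for S (adjusted p = 0.61), while in bodies it fell by 0.69 for M (adjusted p = 0.0341) and by 0.70 for S (adjusted p = 0.0299). Of all genes tested in bodies, 33.1% passed in M and 36.8% in S, and the body groups also differed in oocyte genes, as given below. An mRNA level does not test an edit that leaves the transcript in place. None of the 4 enzyme genes lies on the chromosome of ccser1 in the RefSeq gene table. Levels below are counts scaled to library totals (CPM) after TMM scaling, adjusted p values come from the quasi-likelihood test of edgeR with Benjamini-Hochberg adjustment over all genes tested, and a gene is called at an adjusted p below 0.05. Gene lengths were not used, so levels are compared between libraries and not between genes.

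In brain, aanat2 and asmt were higher in both mutant lines, and aanat1 and asmt2 were not called in either. All 4 genes passed the filter on low counts in brain. The calls were 2 of 4 higher and 0 lower in M, where 10.1% of all genes tested were called in either direction, and 2 of 4 higher and 0 lower in S, where 10.3% were. Transcripts of aanat2 and asmt were scarce in WT brains and entered the test through the mutant libraries, so their count among the genes tested carries no weight of its own.

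The acetylating enzyme of the pineal gland, aanat2, was read 10, 8 and 7 times in the WT brains, 62, 89, 118 and 61 times in the M brains, and 83, 55, 54 and 67 times in the S brains. On the CPM scale these are 1.28, 1.03 and 0.821 in WT, 7.36, 9.46, 15.4 and 6.81 in M, and 10.5, 6.02, 6.46 and 7.08 in S. Every mutant brain lay above every WT brain, and the 2 lines overlapped. The WT brains averaged 1.05 ± 0.232 CPM (SD, n = 3), the M brains 9.76 ± 3.94 (SD, n = 4) and the S brains 7.52 ± 2.04 (SD, n = 4). The log2 change was 3.21 for M (SE 0.359, 95% interval 2.44 to 3.98, edgeR adjusted p = 0.000108) and 2.83 for S (SE 0.36, 95% interval 2.06 to 3.60, adjusted p = 0.000382).

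The methylating enzyme asmt, which completes melatonin, was higher in the same brains. It was read 7, 7 and 4 times in the WT brains, 150, 109, 180 and 157 times in the M brains, and 210, 92, 205 and 173 times in the S brains. In CPM the WT brains were at 0.899, 0.901 and 0.469, the M brains at 17.8, 11.6, 23.5 and 17.5, and the S brains at 26.6, 10.1, 24.5 and 18.3. No mutant brain came near the WT range, and the M values lay inside the span of the S values. The WT mean was 0.756 ± 0.249 CPM (SD, n = 3), the M mean 17.6 ± 4.87 (SD, n = 4) and the S mean 19.9 ± 7.43 (SD, n = 4). The log2 changes were 4.52 for M (SE 0.452, 95% interval 3.54 to 5.51, edgeR adjusted p = 0.000166) and 4.70 for S (SE 0.451, 95% interval 3.71 to 5.69, adjusted p = 0.000146). Because these are whole brains, more RNA per cell, more cells of a type and more of a tissue kept with the brain at dissection cannot be told apart.

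Both changes kept their direction and their call in all 18 alternative fits of each comparison. Across those fits the log2 change of aanat2 ran from 2.90 to 3.38 in M, and that of asmt from 4.26 to 4.68.

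**Figure D1:**
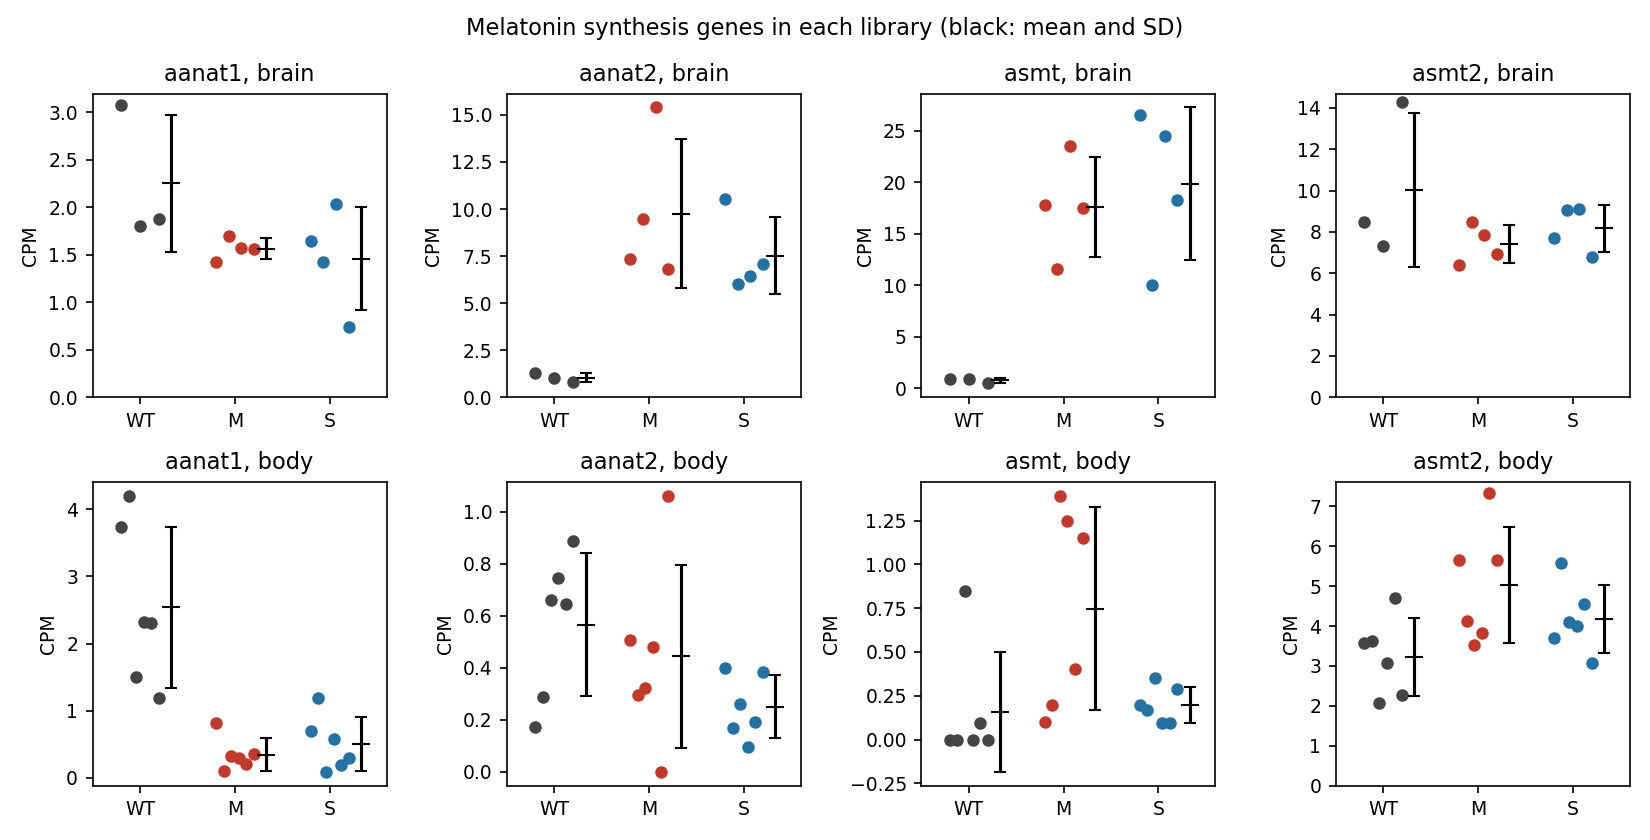
CPM of each enzyme gene in every library, by tissue and genotype, with the mean and SD of each group. In brain aanat2 and asmt separate the mutants from WT without overlap, at 6.02 CPM or more against 1.28 or less for aanat2 and 10.1 or more against 0.901 or less for asmt, while in bodies aanat1 is the gene that is high in WT.

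The 2 genes that rose did not keep a fixed proportion to each other. Reads of asmt per read of aanat2 were 0.7, 0.875 and 0.571 in the WT brains, 2.42, 1.23, 1.52 and 2.57 in the M brains, and 2.53, 1.67, 3.80 and 2.58 in the S brains. The ratio was higher in all 8 mutant brains than in any of the 3 WT brains, though each WT ratio rests on 10 reads or fewer of either gene. Reads of aanat2 per read of aanat1 changed from between 0.417 and 0.571 in WT to between 4.36 and 9.83 in M and between 3.18 and 9.57 in S. Reads of asmt per read of asmt2 changed from at most 0.123 in WT to at least 1.36 in M and 1.11 in S. These last 2 ratios mostly restate the rise of aanat2 and asmt, since aanat1 and asmt2 were not called in either line. No ratio was tested.

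The other copy of each pair did not follow. The WT brains held aanat1, the retina-type acetyltransferase, at 3.08, 1.80 and 1.88 CPM, the M brains at 1.42, 1.70, 1.57 and 1.56, and the S brains at 1.65, 1.42, 2.03 and 0.74. Every M brain and 3 of the 4 S brains lay below the WT brains, and the remaining S brain lay within them. The log2 difference from WT was -0.52 for M (95% interval -1.37 to 0.33, edgeR adjusted p = 0.443) and -0.63 for S (95% interval -1.48 to 0.23, adjusted p = 0.35), intervals that leave room for a fall of more than 1 log2 unit.

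For asmt2 the brains held 8.48, 7.34 and 14.3 CPM in WT, 6.41, 8.50, 7.84 and 6.92 in M, and 7.72, 9.08, 9.09 and 6.76 in S. Both lines overlapped the 2 lower WT brains, and only WT brain 3 stood above them all. The log2 difference was -0.44 for M (95% interval -0.92 to 0.04, edgeR adjusted p = 0.234) and -0.30 for S (95% interval -0.78 to 0.18, adjusted p = 0.431). Without WT brain 3 the value was -0.10 for M (adjusted p = 0.842) and 0.05 for S (adjusted p = 0.933), so the sign of the S value rests on that library.

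The 2 lines did not differ from each other in any of the 4 genes by this test, in a comparison where 10.1% of all genes were called. M minus S was 0.11 for aanat1 (95% interval -0.70 to 0.92, edgeR adjusted p = 0.896), 0.37 for aanat2 (95% interval -0.19 to 0.94, adjusted p = 0.409), -0.17 for asmt (95% interval -0.80 to 0.45, adjusted p = 0.754) and -0.14 for asmt2 (95% interval -0.59 to 0.31, adjusted p = 0.734). The intervals bound any difference between the lines to under 1 log2 unit for each gene, on a scale where asmt stood 4.52 and 4.70 above WT. The comparisons of M and of S with WT share the same 3 WT brains.

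**Figure D2:**
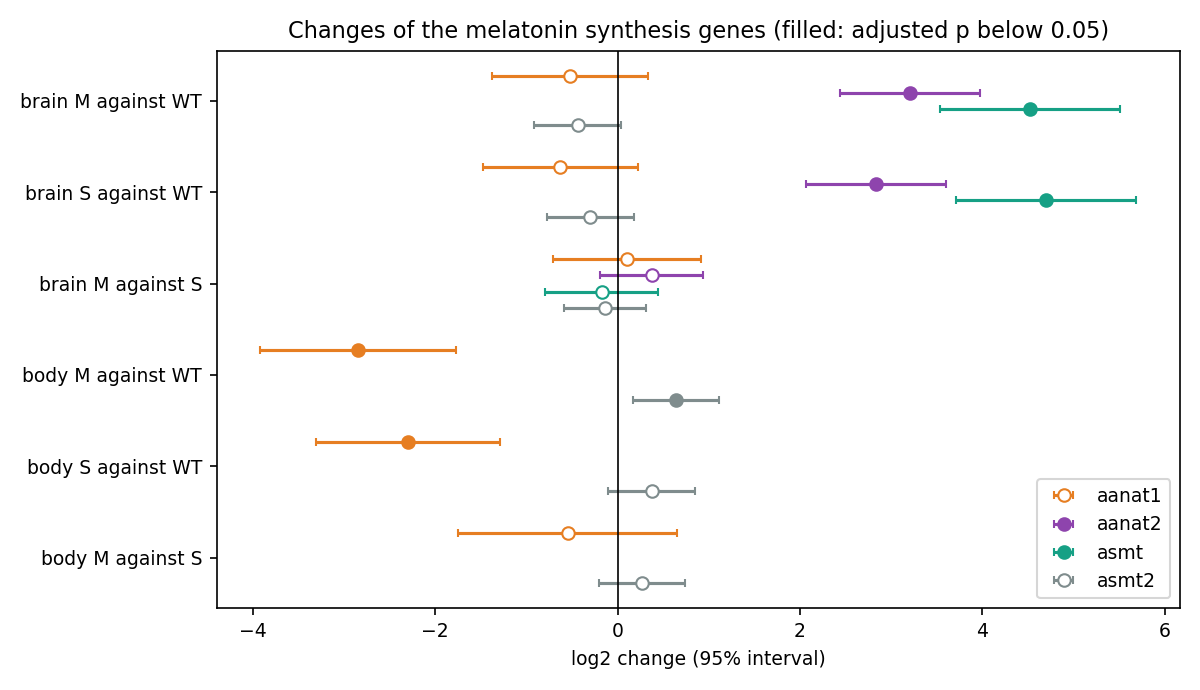
Log2 change of each enzyme gene, with 95% intervals, for M against WT, S against WT and M against S in brains and in bodies where the gene was tested; filled points are called. The brain values of aanat2 and asmt against WT lie between 2.83 and 4.70 with intervals above 0, and the body values of aanat1 lie at -2.85 and -2.30.

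Photoreceptor genes that mark the pineal gland were higher in the same brains. Of a list of 20 pineal marker genes, 17 passed the filter, several of them only through the mutant libraries, and 11 were called higher and 0 lower in each line. The share called over all genes was 10.1% in M and 10.3% in S. The median log2 change over the 17 was 2.14 in M and 3.31 in S, beside 0.0076 and 0.0024 over all genes. Because genes high in the mutant brains passed the filter that way, neither the count nor these medians carry weight of their own. All 11 called genes are photoreceptor genes and, apart from rbp3, belong to the photoreceptor cascade or its transcription factors. The 6 that were tested and not called were bsx, at 1.09 for M (edgeR adjusted p = 0.109) and 0.28 for S (adjusted p = 0.732), both TBX2 genes, col14a1b and both DKK3 genes. The summed level of the whole list was 254 to 296 CPM in WT brains, 337 to 411 in M and 337 to 428 in S. Most of the WT sum came from 1 uncalled gene, DKK3 ENSDARG00000103591, at a mean of 231 CPM in WT and 196.5 in M. The groups did not overlap in this sum, which includes the genes called above.

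The arrestin gene saga, which shuts off a light-activated opsin, was at 2.31, 1.16 and 2.34 CPM in the WT brains, 42.4, 38.7, 56.2 and 43.2 in M, and 65.5, 37.5, 64.2 and 65.2 in S. Its log2 change was 4.52 for M (SE 0.294, edgeR adjusted p = 7.71e-06) and 4.89 for S (SE 0.294, adjusted p = 5.88e-06). The transcription factor gene crx, which drives photoreceptor and pineal genes in vertebrates, was read 0, 0 and 3 times in the WT brains, 40 to 51 times in M and 40 to 92 times in S.

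Other genes with large changes in this list were rbp3, for a retinoid-binding protein of the space around photoreceptors, at 3.75 for M (edgeR adjusted p = 3.79e-07) and 3.31 for S (adjusted p = 1.09e-06), and GNAT1, for the alpha subunit of rod transducin, at 4.51 (adjusted p = 0.000641) and 4.78 (adjusted p = 0.000446). CNGA3 (ENSDARG00000070726), for a subunit of a cyclic nucleotide-gated cation channel of photoreceptors, was at 3.08 (adjusted p = 0.000373) and 3.44 (adjusted p = 0.00015). Each of these changes held in all 18 alternative fits. The part of this gland or of its cells in the enzyme result was not tested.

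**Figure D3:**
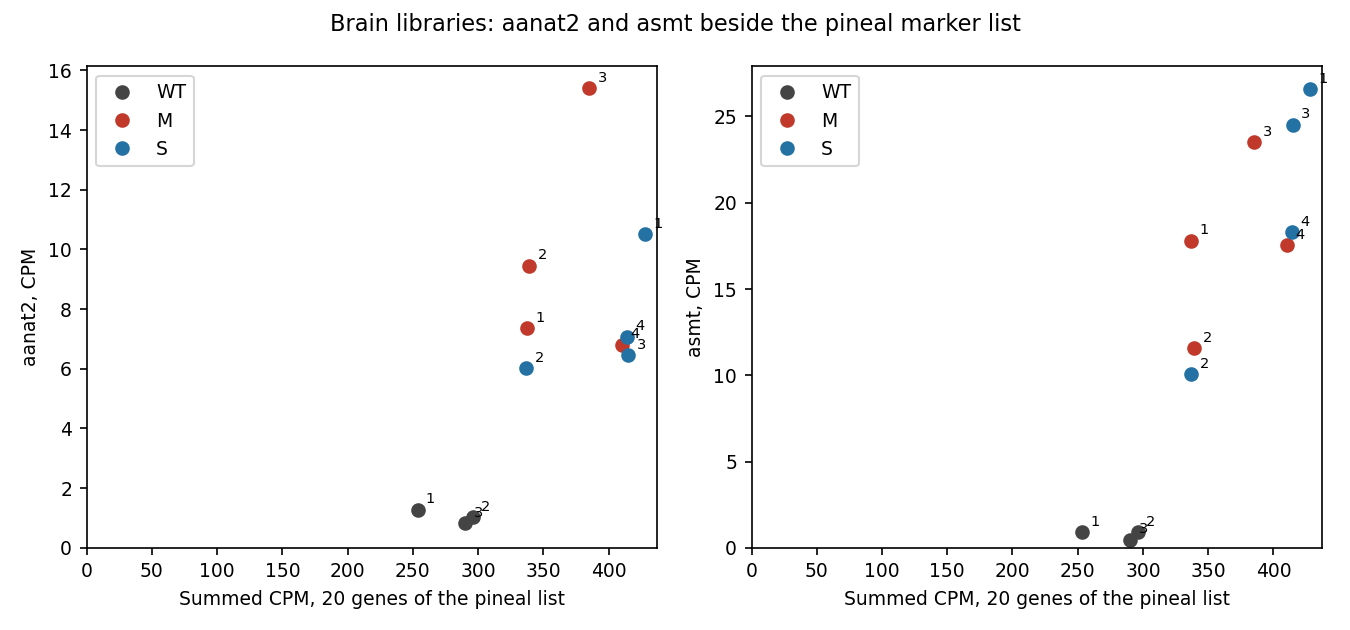
CPM of aanat2 (left) and asmt (right) in each of the 11 brain libraries against the summed CPM of all 20 genes of the pineal list, with replicate numbers. The 3 WT brains have sums of 254 to 296 CPM and the 8 mutant brains sums of 337 to 428 CPM.

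Of 10 marker genes of the habenula, which adjoins the pineal gland, none was called in either line. Their summed level was 406 to 416 CPM in WT, 397 to 423 in M and 447 to 468 in S. The M brains overlapped the WT brains in this sum, and every S brain lay above every WT brain. Muscle and epidermis lists, 6 tested genes each, had no called gene, and S brain 3 held the highest sums of both at 868 and 3664 CPM. Among the 8 neuronal genes 1 was higher and 1 lower in M, and 1 higher and 3 lower in S. Over all genes 10.1% were called in M and 10.3% in S.

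The control genes of the pathway were moved in part, in brains where 10.1% of all genes were called in M and 10.3% in S. Of 16 genes for transcription factors of the pineal gland 12 were tested, and 3 were higher in each line, namely crx, another gene listed as CRX (3.80 in M and 4.05 in S) and NR2E3, for a photoreceptor nuclear receptor (1.19 in M, edgeR adjusted p = 0.0391, and 1.35 in S, adjusted p = 0.0214). The crx and CRX genes were already counted among the called pineal markers above, and both were scarce in WT brains. The NR2E3 call was lost in 7 of 11 fits that left out 1 library in M and in 3 of 11 in S, among them the fit without WT brain 2 (adjusted p = 0.136 in M and 0.0772 in S). OTX2, another factor of the list, was not called in either line, at 0.35 for M (adjusted p = 0.0573) and -0.34 for S (adjusted p = 0.0684), while between the lines M minus S was 0.69 (SE 0.103, adjusted p = 0.00102), a call that held in all 18 alternative fits.

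Melatonin synthesis follows the clock, and light acts on AANAT protein through cAMP and 14-3-3 proteins. Of 38 clock genes 4 were higher and 6 lower in M, and 6 higher and 2 lower in S. Of all genes tested, 10.1% were called in M and 10.3% in S. Both lines were lower in cry3a, a cryptochrome gene, at -0.52 for M (edgeR adjusted p = 0.00543) and -0.52 for S (adjusted p = 0.00569). CLOCK was higher in M at 0.86 (adjusted p = 0.00332) and at 0.29 for S (adjusted p = 0.253). The summed clock level was 7242 to 7697 CPM in WT, 5228 to 7909 in M and 8001 to 8462 in S, so the S brains lay above the WT brains. Of the M brains 3 lay below all WT brains, at 5228, 5808 and 5994 CPM, and M brain 4 lay above them at 7909. Of 21 tested genes of the adrenergic, cAMP and 14-3-3 list, beside the same shares over all genes, 2 were higher and 3 lower in M and 1 higher and 2 lower in S. The largest of these was cremb, for a cAMP-responsive factor related to the repressor ICER of mammals, at -1.49 for M (adjusted p = 0.00037) and -0.77 for S (adjusted p = 0.0193); the S call did not hold without WT brain 2 (adjusted p = 0.0981) or S brain 4 (adjusted p = 0.0576). The hour at which brains were taken is not labelled, and its part in these values cannot be told apart from genotype.

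Upstream, the tryptophan hydroxylase genes were higher by a smaller step. TPH1 (ENSDARG00000029432), the hydroxylase of gut and pineal gland in mammals, was at 6.93, 10.4 and 4.45 CPM in the WT brains, 17.6, 15.7, 18.1 and 10.2 in M, and 16.2, 14.1, 11.8 and 12.3 in S. The lowest M brain lay just under the highest WT brain, and all S brains lay above WT. Its log2 change was 1.08 for M (SE 0.264, edgeR adjusted p = 0.0205) and 0.91 for S (adjusted p = 0.0434). The M call did not survive leaving out WT brain 1 (adjusted p = 0.0603) or 3 (0.0733), or M brain 1 (0.0546) or 3 (0.0598). The S call was lost in 9 of the 11 fits that left out 1 library, with adjusted p up to 0.16.

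TPH2, the hydroxylase of serotonin neurons, was at 21.2, 18.8 and 18.4 CPM in WT, 30.7, 26.7, 36.7 and 30.8 in M, and 34.5, 22.6, 27.9 and 25.5 in S. No mutant brain fell into the WT range. The change was 0.68 for M (SE 0.148, edgeR adjusted p = 0.0107), which held in each fit that left out 1 library, and 0.50 for S (adjusted p = 0.0429), which was lost in 7 of 11 with adjusted p up to 0.144. DDC, the next step, was at 0.10 for M (adjusted p = 0.63) and 0.34 for S (adjusted p = 0.0681). The other TPH1 gene (ENSDARG00000036082) was too low to test in brain, at 1.20 CPM or less in all libraries.

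Tryptophan hydroxylase needs tetrahydrobiopterin (BH4). Of 6 tested genes of BH4 supply 1 was higher and 2 lower in M, and 1 higher and 0 lower in S. The shares called over all genes were 10.1% in M and 10.3% in S. GCH1, the rate-limiting enzyme of BH4 synthesis, was higher at 0.49 for M (edgeR adjusted p = 0.0336) and 0.65 for S (adjusted p = 0.00886). QDPR (ENSDARG00000040190), which recycles BH4, was lower in M at -0.75 (adjusted p = 0.00287) and at 0.06 for S (adjusted p = 0.807). The M call of GCH1 was lost in 6 of the 11 fits that left out 1 library, with adjusted p up to 0.105, and the S call was kept in all 11.

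**Figure D4:**
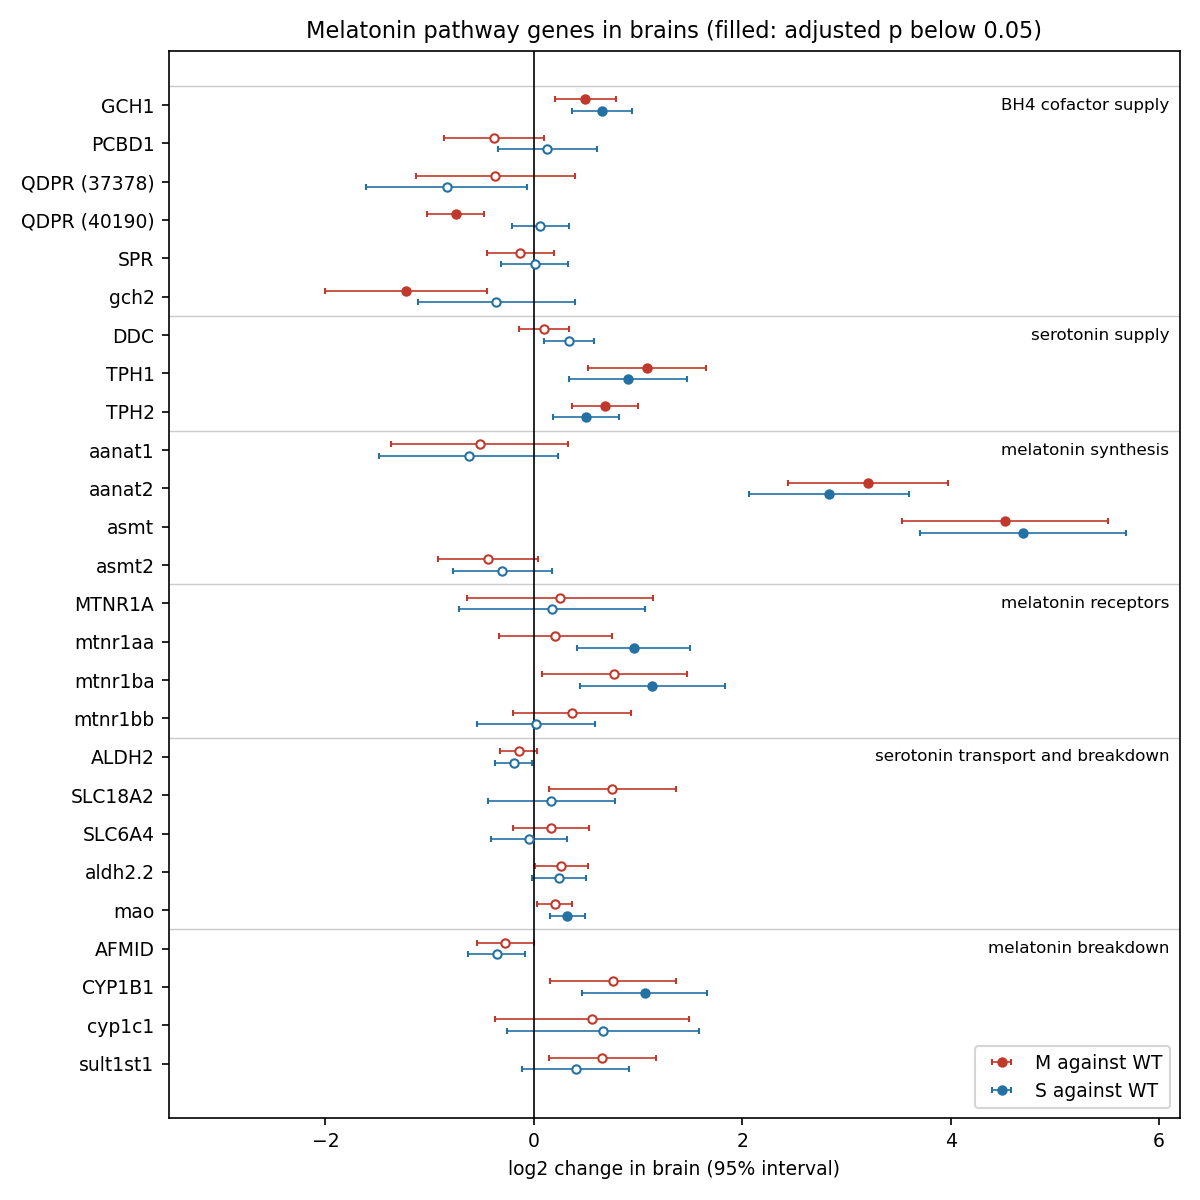
Log2 change from WT in M and S brains, with 95% intervals, for tested genes of BH4 supply, serotonin supply, melatonin synthesis, melatonin receptors, serotonin transport and breakdown, and melatonin breakdown; filled points are called. The values of aanat2 and asmt, from 2.83 to 4.70, stand beyond those of TPH1 and TPH2, from 0.50 to 1.08, and of the other genes shown.

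Downstream, receptor genes were called against WT in S and not in M, while 0 of the 4 tested were called between the lines. Of 5 melatonin receptor genes 4 were tested in brain, and 0 were called in M and 2 higher in S, beside 10.1% and 10.3% of all genes. The receptor gene mtnr1aa was at 2.44, 2.96 and 3.52 CPM in WT, 4.27, 2.98, 3.40 and 3.13 in M, and 6.59, 6.23, 4.55 and 5.81 in S, so each S brain lay above all WT and M brains. Its log2 change was 0.96 for S (SE 0.253, edgeR adjusted p = 0.0269) and 0.21 for M (adjusted p = 0.658), and M minus S was -0.75 (adjusted p = 0.0502). Another receptor gene, mtnr1ba, was at 1.16, 2.32 and 2.11 CPM in WT, 2.73, 2.66, 3.13 and 4.24 in M, and 3.42, 4.70, 3.47 and 4.86 in S. Both mutant lines lay above WT here, with 1.14 for S (SE 0.324, adjusted p = 0.0378) and 0.77 for M (adjusted p = 0.146).

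Both S calls were fragile, being lost in 5 of 11 fits that left out 1 library for each gene, with adjusted p up to 0.0814 for mtnr1aa and 0.111 for mtnr1ba. The remaining receptor genes were not called, with MTNR1A at 0.25 for M (adjusted p = 0.757) and 0.18 for S (adjusted p = 0.837), and mtnr1bb at 0.37 (adjusted p = 0.411) and 0.02 (adjusted p = 0.968). The gene mtnr1al was too low to test, at 1.17 CPM or less in all brains.

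Genes that remove serotonin or melatonin had few calls in brain, where 10.1% of all genes were called in M and 10.3% in S. Of 5 tested genes for serotonin transport and breakdown, 0 were called in M and 1 was higher in S, namely mao, for monoamine oxidase, at 0.32 (edgeR adjusted p = 0.0199). Of 4 tested genes of melatonin breakdown, 0 were called in M and 1 was higher in S, namely CYP1B1, at 1.06 (adjusted p = 0.0318), with 0.76 for M (adjusted p = 0.106). The median of these 4 was 0.61 for M and 0.53 for S. The summed level of the 8 genes of the breakdown list was 39.9 to 49.2 CPM in WT brains, 51.3 to 63.0 in M and 54.6 to 62.5 in S, so every mutant brain lay above every WT brain. The mao call did not hold without WT brain 3 (adjusted p = 0.0962) or S brain 1 (0.0522), and the CYP1B1 call in 5 of 11 fits that left out 1 library, with adjusted p up to 0.0957. The serotonin transporter SLC6A4 was at 0.17 for M (adjusted p = 0.578) and -0.05 for S (adjusted p = 0.899).

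In bodies the pattern was another one: aanat1 was lower in both lines, and the pineal-type genes were near the limit of counting. Only aanat1 and asmt2 passed the filter. For aanat1 this was through the WT bodies, with 12 to 44 reads each, against 1 to 8 in M and 1 to 14 in S. In M bodies 1 of these 2 was higher and 1 lower, where 33.1% of all genes tested were called, and in S bodies 0 were higher and 1 lower, where 36.8% were. A call was thus common in bodies, and a count of 1 or 2 says little about these genes as a set.

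Levels of aanat1 in the 6 WT bodies ran from 1.18 to 4.203 CPM with a median of 2.32. M bodies ran from 0.098 to 0.809 with a median of 0.304, and S bodies from 0.0873 to 1.18 with a median of 0.431. Each M body lay below each WT body, and S body 2, at 1.185, reached the lowest WT body, at 1.182. The log2 change was -2.85 for M (SE 0.511, 95% interval -3.92 to -1.77, edgeR adjusted p = 0.000391) and -2.30 for S (SE 0.482, 95% interval -3.31 to -1.29, adjusted p = 0.00148). Between the lines the value was -0.55 (95% interval -1.75 to 0.65, adjusted p = 0.646), in a comparison where 8.11% of all genes were called and neither tested member was. Retinal transcripts were scarce in these bodies: 11 visual opsin genes summed to 0.573 to 2.35 CPM in WT, 0.098 to 4.33 in M and 0.847 to 2.21 in S. Which tissue gave the aanat1 reads was not tested.

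Oocyte genes were also lower in the mutant bodies, and in part moved with aanat1 from body to body. Of 12 oocyte genes, a list chosen with these data known, 11 were tested, and 0 were higher and 11 lower in M, and 0 higher and 10 lower in S. Of all genes tested, 33.1% were called in M bodies and 36.8% in S bodies. Oocyte genes were high in WT bodies, which largely carried them past the filter, so these counts carry no weight of their own. Their summed level was 2965, 2230, 620, 2324, 1280 and 488 CPM in WT bodies 1 to 6, between 1.31 and 50.8 in M and between 1.54 and 443 in S. The 2 WT bodies lowest in oocyte genes, 3 and 6, were also the 2 lowest in aanat1, at 1.51 and 1.18 CPM. The S body highest in oocyte genes, number 2, was the highest in aanat1 among S bodies, and M body 1 held the highest value of both among M bodies. Other mutant bodies did not follow. S body 3 had an oocyte sum of 180 CPM and the lowest aanat1 of all bodies, at 0.0873 CPM. S body 1 had a sum of 3.6 CPM and aanat1 at 0.70, and M body 2 a sum of 8.24 and the lowest aanat1 in M, at 0.098. MOS, a kinase gene of maturing oocytes, ran from 6.40 to 37.9 CPM in WT, from 0 to 0.642 in M and from 0.1 to 3.81 in S.

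When a score of these genes entered the fit as a covariate, a choice made after seeing the data, aanat1 was at -0.81 for M (SE 0.90, edgeR adjusted p = 0.931) and -0.70 for S (SE 0.756, adjusted p = 0.803), so neither call held. Sex is not labelled, and genotype and the amount of ovary cannot be told apart by group in these bodies.

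**Figure D5:**
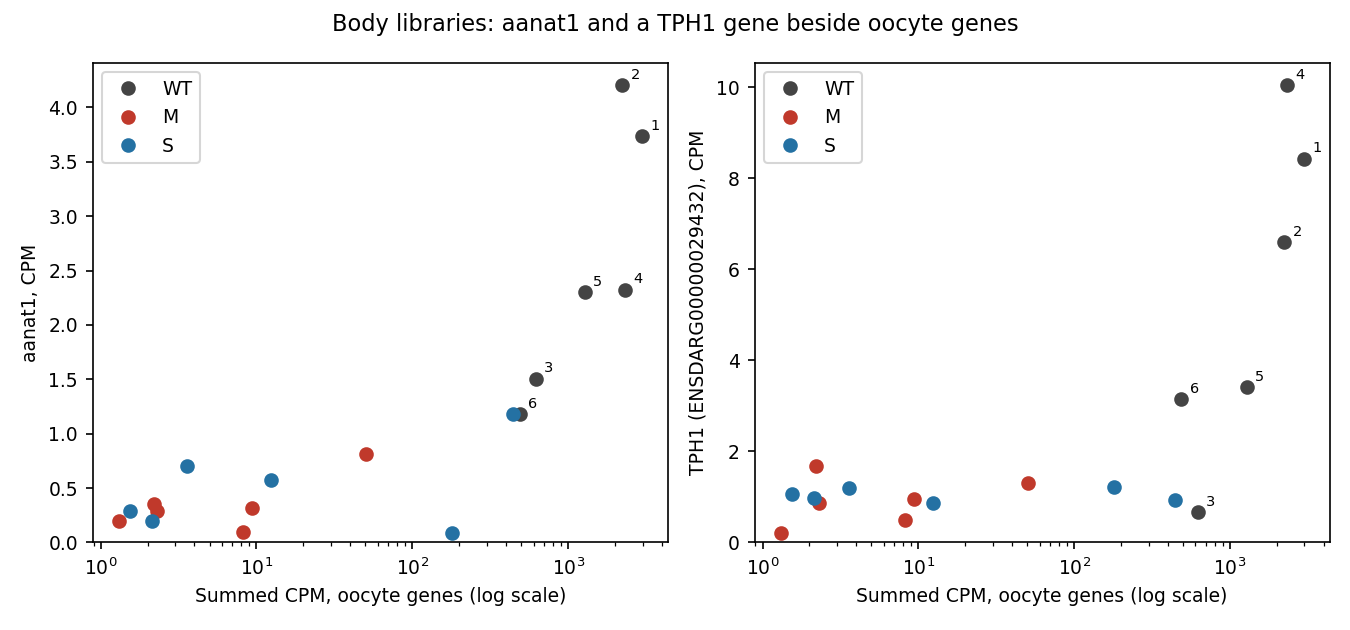
CPM of aanat1 (left) and of TPH1 ENSDARG00000029432 (right) in each body library, on a linear axis, against the summed CPM of 12 oocyte genes on a log axis. WT bodies, numbered, have oocyte sums from 488 to 2965 CPM and lie to the right, the mutant bodies lie to the left at 443 CPM or less, and WT body 3 is low in TPH1.

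The gene for growth hormone, gh1, marks whether pituitary tissue remained with the body. It was below 1 CPM in 5 bodies, WT bodies 1, 2 and 5 and M bodies 2 and 5. Without these 5 bodies the M value of aanat1 was -1.91 (SE 0.631, edgeR adjusted p = 0.0584), and its call was lost, while the S value was -1.69 (SE 0.553, adjusted p = 0.0498), just inside the threshold.

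In bodies asmt2 was higher in M by a small step. WT bodies ran from 2.07 to 4.70 CPM with a median of 3.32, M bodies from 3.53 to 7.34 with a median of 4.89, and S bodies from 3.07 to 5.59 with a median of 4.06. The groups overlapped. The log2 change was 0.64 for M (SE 0.227, 95% interval 0.17 to 1.12, edgeR adjusted p = 0.0365) and 0.37 for S (SE 0.228, 95% interval -0.10 to 0.85, adjusted p = 0.199), and M minus S was 0.27 (95% interval -0.20 to 0.74, adjusted p = 0.543). The M call did not survive leaving out WT body 3 (adjusted p = 0.0701), 4 (0.0777) or 6 (0.0613). The same held for M bodies 1 (0.0688), 5 (0.0924) and 6 (0.0655), and the call was lost with only the M and WT bodies in the fit (0.0612).

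Transcripts of aanat2 were read 2, 3, 7, 8, 7 and 9 times in the WT bodies, 5, 3, 3, 5, 0 and 12 times in the M bodies, and 4, 2, 3, 1, 2 and 4 times in the S bodies. In a fit with no filter on low counts the change was -0.32 for M (edgeR adjusted p = 0.7) and -1.15 for S (adjusted p = 0.143). Neither difference was called at this depth, and the 95% interval for S, -2.37 to 0.06, leaves room for a large fall. For asmt the counts were 0, 0, 9, 0, 1 and 0 in WT, 1, 2, 13, 13, 4 and 13 in M, and 2, 2, 4, 1, 1 and 3 in S. The M bodies 3, 4 and 6 held most of the M reads, and WT body 3 held 9 of the 10 WT reads. The unfiltered change was 2.18 for M (SE 0.838, adjusted p = 0.0616) and 0.33 for S (adjusted p = 0.818). The 14 photoreceptor genes of the pineal list, a subset drawn after the values were seen, had sums that ran from 1.38 to 5.18 CPM in WT bodies, from 2.01 to 7.60 in M and from 1.05 to 4.71 in S, with overlap between the groups.

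TPH1 went the other way in bodies than in brains. TPH1 (ENSDARG00000029432) was at 8.43, 6.59, 0.659, 10.04, 3.41 and 3.15 CPM in WT bodies, between 0.201 and 1.68 in M and between 0.86 and 1.22 in S. Except for WT body 3, each WT body lay above all mutant bodies. The log2 change was -2.53 for M (SE 0.491, edgeR adjusted p = 0.000714) and -2.36 for S (adjusted p = 0.00121). The other TPH1 gene (ENSDARG00000036082) was lower by about 1 log2 unit, at -1.05 for M (adjusted p = 0.00656) and -1.03 for S (adjusted p = 0.00705). With the oocyte score as a covariate neither gene was called, at -1.18 for M (adjusted p = 0.882) and -1.22 for S (adjusted p = 0.688) for TPH1 ENSDARG00000029432. Without the 5 bodies low in gh1 the call of TPH1 ENSDARG00000036082 was lost, at -0.72 for M (adjusted p = 0.139) and -0.66 for S (adjusted p = 0.128). TPH2, at 1.11 for M (adjusted p = 0.0917) and 0.67 for S (adjusted p = 0.299), DDC and the melatonin receptor genes were not called in bodies.

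The change of each enzyme gene was then compared between tissues, as an interaction of genotype and tissue in 1 fit of all 29 libraries. In M, 12.3% of all genes tested had a called interaction and in S 9.17%, and among the 4 members 2 were called lower in each line. Neither aanat2 nor asmt passed the filter in bodies, and both entered this fit through the mutant brains. The count of members called therefore carries no weight of its own. The body change of aanat2 lay below the brain change by 3.54 log2 units for M (SE 0.669, edgeR adjusted p = 0.00148) and by 4.03 for S (SE 0.695, adjusted p = 0.00124), and both held in all 35 alternative fits. For asmt the difference was -4.40 for S (SE 1.22, adjusted p = 0.0241) and -2.36 for M (SE 1.12, adjusted p = 0.172). These values rest on WT body 3, which carried the WT reads: without it they were -1.92 for S (adjusted p = 0.698) and 0.12 for M (adjusted p = 0.82), and the S call did not hold without WT brain 3 either (adjusted p = 0.0544).

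For aanat1 the fall was steeper in body than in brain by 2.38 log2 units for M (SE 0.707, edgeR adjusted p = 0.0271), which was lost without WT brain 2 (adjusted p = 0.0724) or 3 (0.0677), and the S value was -1.74 (SE 0.688, adjusted p = 0.106). For asmt2 the interaction was 1.04 for M (SE 0.362, adjusted p = 0.0571) and 0.60 for S (adjusted p = 0.294). With DESeq2 the M value was 1.22 (adjusted p = 0.00494) and with RLE size factors 1.21 (adjusted p = 0.0163), both past the threshold.

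In WT fish all 4 genes were read in each brain, and all but asmt in each body. Between WT brain and WT body 79.7% of all genes tested were called, and 1 of the 4 members was. That gene was asmt2, higher in brain by 1.12 log2 units (SE 0.262, edgeR adjusted p = 0.000357). The brain minus body difference was -0.69 for aanat1 (SE 0.482, adjusted p = 0.187), 0.38 for aanat2 (SE 0.507, adjusted p = 0.499) and 1.70 for asmt (SE 0.864, adjusted p = 0.0737). The asmt value became 4.17 without WT body 3 (adjusted p = 0.000497). The median over all genes in this contrast was -0.12.

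Ordered by group mean within each tissue, the brains held asmt at 19.9 CPM in S, 17.6 in M and 0.756 in WT, and aanat2 at 9.76 in M, 7.52 in S and 1.05 in WT, and in both orders only the step down to WT was clear of overlap. The brain order of aanat1 was WT (2.25), M (1.56) and S (1.46), and that of asmt2 was WT (10.04), S (8.17) and M (7.42). The WT brains lay just above the M brains in aanat1, at 1.80 CPM or more against 1.70 or less, a difference that missed the test, and the other neighbours overlapped. In bodies the order was M (0.748), S (0.20) and WT (0.157) for asmt, WT (0.566), M (0.443) and S (0.251) for aanat2, WT (2.54), S (0.505) and M (0.345) for aanat1, and M (5.02), S (4.17) and WT (3.22) for asmt2, and all neighbours overlapped in range. These levels were scaled within each tissue and are not set across tissues, which only the joint fit compares.

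Among the 18733 genes tested in brain, genes whose profile over the 11 libraries lay closest to each enzyme gene were found by the root mean square difference of centred log2 CPM. Genes with only a clone name or no symbol were passed over, here and in bodies below. For asmt the closest were guca1aa (0.341), rcvrna (0.365), rdh5 (0.368), ARR3 (0.379) and PDE6C (0.394), all genes known from the retina. The median over all genes was 1.95. That median lies near the spread of asmt itself, 1.93, which is mostly the step between WT and mutant brains given above. For aanat2 they were cngb3.1 (0.204), ppdpfa (0.35), GRK7 (0.377), sv2ba (0.46) and pcare2 (0.461), against a median of 1.31 and a spread of aanat2 itself of 1.28. The cascade genes among these encode the channel subunit cngb3.1 and the opsin kinase GRK7. The distance between aanat2 and asmt themselves was 0.782, and neither was among the 5 closest genes of the other.

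For aanat1 the closest gene in brain was lyrm2 (0.212) and for asmt2 it was ATL2 (0.136), beside medians over all genes of 0.481 and 0.396; the profiles of these 2 enzyme genes varied little, with a spread of 0.40 and 0.293. In bodies, over 18 libraries, the closest to aanat1 was SLC16A3 (0.457, median over all genes 1.30). The closest to asmt2 in bodies were siae (0.245), HAL (0.252), TDO2 (0.272), MAT1A (0.274) and BSCL2 (0.279), against a median of 0.581; HAL, TDO2 and MAT1A encode enzymes of histidine, tryptophan and methionine metabolism that are abundant in liver. These likenesses describe the libraries, which share their depth and scaling, and no test was made of them.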

How the data were processed

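The authors deposited raw counts of reads per gene for 11 brain and 18 body libraries; per the labels, libraries of poly(A) RNA were sequenced from both ends for 150 bp (Illumina HiSeq). STAR is named in the submitters' processing notes, as are the builds GRCz11 and GRCz10 without their roles; the counting program, annotation and strand setting were not given in the sources used here. Gene copies of a pair can share reads if the authors' counting split them, and this was not checked.

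Groups follow the genotype and tissue labels. The counts were scaled by TMM, filtered by the default rule (minimum count 10) and tested with a robust quasi-likelihood fit of edgeR 4.0.16 (R 4.3.3), with the 3 groups of a tissue in 1 fit and all 6 groups in 1 fit for tissue differences. The filter kept 18733 genes in brain, 20240 in body and 22442 in both. The biological coefficient of variation was 0.202 in brain and 0.292 in body. The script was tested on simulated data with known changes. No library duplicated another of its group in 15 brain and 45 body pairs.

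Named genes are the 4 enzymes, all genes for serotonin supply and melatonin receptors, up to 5 genes of each other list with the smallest unadjusted p in brain, and the 5 genes closest in profile to each enzyme (prior count 2 on the log2 CPM scale). The members and lists were chosen with earlier results of these data known; GNAT1, MOS, gh1 and the genes set beside them as markers serve as context. Symbols came from the supplied name table, which gives many genes the capitals of their human orthologue. The search for close profiles passed over genes with only a clone name or no symbol. Part of the genes this rule picks is not reported here. No sequence is printed.

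Alternatives were DESeq2 1.42.0, RLE size factors, no filter, a filter at 1 CPM in 3 libraries, a non-robust fit, a fit of only the groups compared, a block for the replicate number, and each library left out in turn. An oocyte score as covariate and a fit without bodies low in gh1 were added after seeing the data.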

Additional observations from a re-analysis of the deposited data

Results flagged for a closer look

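The change of aanat2 differed between tissues in both lines: body minus brain was -3.54 log2 units in M and -4.03 in S, by the edgeR interaction test. The change of aanat1 differed in M, at -2.38, and that of asmt in S, at -4.40. The asmt value rests on WT body 3, and neither asmt nor aanat2 passed the filter in bodies.

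Among 20 sets of libraries of 1 gene and 1 group checked for a library far from the rest, 2 held one, and chance gives about 1 in 20. M body 1 had the highest aanat1 of its group at 0.809 CPM, with the next at 0.354, and it was also the M body highest in oocyte genes. WT body 3 had 0.848 CPM of asmt, with the next WT body at 0.0922. No cause was tested for either.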

How the results depend on the processing

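The brain changes of aanat2 and asmt and the interaction of aanat2 held under all alternatives. With only the 2 groups compared, 1186 genes were called in M brains against 1895, and asmt2 in M bodies was at 0.67 (adjusted p = 0.0612). Leaving out 1 library at a time gave 1060 to 2590 called genes in M brains, 895 to 2270 in S brains, 1067 to 2482 between the lines and 1041 to 3439 in the S interaction. Over the same fits asmt2 ran from -0.48 to 0.05 in S brains (0.0466 without WT brain 3) and from 0.50 to 0.78 in M bodies, and aanat1 between the lines from -0.12 (without S brain 4) to 0.31 in brain. The interactions ran from -2.79 to -2.16 for aanat1 in M, from -2.22 to -1.52 for aanat1 in S (called at -2.22 without S body 2, adjusted p = 0.035), from 0.70 to 1.23 for asmt2 in M, from -2.63 to 0.12 for asmt in M and from -4.67 to -1.92 for asmt in S. The asmt difference of WT brain against WT body ran from 1.43 to 4.17. Except where the alternative leaves out samples or genes, the cause of these moves was not tested.

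With DESeq2, 3112 genes had a called S interaction against 2057, and the M interaction of asmt2 was 1.22; with RLE size factors it was 1.21. These scalings move the median over all genes by 0.16 in the M interaction, so the asmt2 value relative to that median moved little. The replicate numbers were not taken as pairs, since not every like-numbered pair of residuals correlated above 0.1: r ran from -0.25 to 0.12 for brains and from -0.27 to 0.48 for bodies, where WT with M gave 0.0835 to 0.478 and 10 of 18 pairs exceeded 0.1. With the replicate block, asmt was higher in WT brain than WT body at 2.204 (adjusted p = 0.0115), no other member changed its call, and in brain the calls of GCH1 (0.47, adjusted p = 0.087) and nefla in M and of mtnr1aa, mtnr1ba, CYP1B1, STMN2, YWHAB and tmtops3b in S were lost, and between the lines those of otx2a and valopb.

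The alternatives added after seeing the data moved the body results most. With the oocyte score as covariate, 41 genes were called in M bodies and 236 in S bodies, against 6696 and 7445; aanat1 was at -0.81 and -0.70 and asmt2 in M at 1.21 (adjusted p = 0.438). Without the bodies low in gh1, 2423 and 3091 genes were called and aanat1 in M was at -1.91. Depth limits aanat2 and asmt in bodies, where most libraries held under 10 reads of each.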

Other observations

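Non-visual opsin genes, which give deep-brain and pineal cells their sensitivity to light, were called about as often as all genes. Of 30 genes 21 were tested in brain, and 1 was higher and 1 lower in each line, beside 10.1% of all genes called in M and 10.3% in S. The gene higher in both was parapinopsinb, for an opsin known from the fish pineal gland, at 3.71 for M (edgeR adjusted p = 0.00271) and 4.06 for S (adjusted p = 0.00154). It was already counted among the called pineal markers above. A melanopsin gene, OPN4 ENSDARG00000007553, was lower in M at -1.82 (adjusted p = 0.0125) and at 0.60 for S (adjusted p = 0.338); the M call did not hold without WT brain 3 (adjusted p = 0.0682). The gene tmtops3b was at 1.12 for M (adjusted p = 0.223) and lower in S at -2.33 (adjusted p = 0.0364), a call lost without WT brain 3 (adjusted p = 0.336) or S brain 2 (0.0984), 3 (0.0717) or 4 (0.0797), and with the replicate block (0.0737).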
